A study of Mus musculus with 41 samples.

Results

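The epithelial Trp53-null mammary tumors of mice kept for life on a high animal fat diet (HFD) were set against those of mice kept for life on a low fat diet (LFD). They number 16 of the 41 tumors of the series, 8 from HFD and 8 from LFD mice, and were chosen from the sample labels as the tumors of variable p53 morphology, read here as epithelial, in these diet groups. Each diet group holds 4 early and 4 late tumors. Every tumor arose from Trp53-null mammary duct fragments of BALB/c donor mice, grown in cleared fat pads of wild-type female BALB/c recipients, and the diets began after transplantation at weaning age. The neoplastic epithelium therefore lacks Trp53, while the stroma, vessels and immune cells come from the wild-type host. The fragments came from a few donor mice that were spread evenly over the diets. The LFD tumors 11L and 11R share a label number, and it is not stated whether they grew in 1 mouse. The p-values measure the spread between tumors.

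Background to the comparison is the tissue in which the grafts grow. The mammary fat pad supplies fibroblasts, which lay down collagen and other matrix, as well as endothelial cells, adipocytes and macrophages, and fat cells store the lipid that the diet brings. p53 is a transcription factor that halts division or triggers death in damaged cells, and its loss in mammary epithelium leads to tumors of mixed luminal and basal character. The question of the comparison is whether epithelial tumors that formed under lifelong HFD carry other RNA levels than those that formed under lifelong LFD.

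RNA of each tumor was hybridised with a reference RNA pooled from mouse cell lines on a 2-color array, and every value given here is the log2 ratio of tumor over reference, or a difference between means of such ratios. The labels give Cy5 for the tumor, whereas the study's methods give Cy5 for the reference, so the direction taken here opposes that text. As a check of the channels, genes of the Y chromosome, absent from female tumors, had an array median of Cy5 over Cy3 under 0 on 15 of the 16 arrays, between -2.36 and 0.26, with HFD tumor 40R4A as the exception. Probes also varied more over the arrays in Cy5, with a median SD of 0.71 on the log2 scale, than in Cy3, with 0.52.

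Slide was tied to diet, since no slide held tumors of both. The LFD late tumors lay on slide 4, the LFD early tumors on slide 5, and the HFD tumors on slides 6, 7 and 8, so diet and slide cannot be told apart. In the tumor channel 62.8% to 89.9% of spots were well above background, with a mean of 68.6% ± 4.29 (SD, n = 8) in HFD and 74.6% ± 7.48 (SD, n = 8) in LFD (p = 0.0581, two-sided exact permutation test). A few tumors stood apart from the rest. HFD early tumors 42L4B and 60L, both on slide 7 and scanned in another session, lay at 104.8 and 136 on the first principal component of 14025 genes, against -34.3 to 2.69 for the other tumors, and 22% of the spots of 60L were marked as outliers. LFD late tumor 13L lay at -92.1 on the second component. Array profiles were about as alike across diets (median r = 0.829 over 64 pairs of tumors) as within a diet (median r = 0.829 over 56 pairs). Within a diet the median r was 0.846 over 20 pairs on the same slide and 0.810 over 36 pairs on different slides, and all pairs across diets lay on different slides. These values describe pairs that share tumors.

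Epithelial markers were well above background in all 16 tumors. These were the luminal genes Krt8, Krt18, Krt19, Epcam and Cdh1 and the basal genes Krt5, Krt14, Krt17 and Trp63. The macrophage genes Adgre1, Cd68 and Csf1r and the endothelial genes Pecam1, Cdh5 and Kdr were also above background in all 16. In RNA from whole tumors, fewer cells of a type and less RNA per cell cannot be told apart.

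Trp53 itself had 1 probe, whose place relative to the deleted part of the allele is not known here, so its level does not check the genotype. It ran from 0.13 to 3.74 with a median of 0.78 in HFD tumors, against -2.25 to 0.997 with a median of 0.64 in LFD tumors. The extremes were the tumors that stood apart, with 2.99 in 42L4B, 3.74 in 60L and -2.25 in 13L. The HFD minus LFD difference in Trp53 was 0.97 ± 0.55 (SE), and without those 3 tumors it was -0.089.

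No gene differed between HFD and LFD epithelial tumors after adjustment over all genes. Of 21244 genes tested with limma, 0 were higher (0%) and 0 lower (0%) in HFD at a Benjamini-Hochberg adjusted p under 0.10, and the smallest adjusted p was 0.623. At an unadjusted p under 0.05, 699 genes were higher (3.29%) and 978 lower (4.6%). The SAM statistic also called 0 higher and 0 lower. The typical gene was measured with a standard error of 0.27 and a 95% interval of 0.57 to either side. That interval is before adjustment, so a call after adjustment would have needed a larger difference in such a gene. The median difference over all genes was -0.02. With another background correction, normexp followed by loess, the split at an unadjusted p under 0.05 turned round to 6.35% higher and 3.15% lower, while the calls after adjustment stayed at 0.

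The genes below did not pass the test, and their values are given because their p-values were the smallest in each direction or because they belong to the lists described. Among genes with higher values in HFD, Runx2, a transcription factor of bone and mammary cells, had the smallest p. It ran from 0.64 to 1.84 with a median of 1.12 in HFD, against -1.07 to 0.49 with a median of -0.11 in LFD, a difference of 1.31 ± 0.26 (SE; adjusted p = 0.623 by limma). All 8 HFD tumors lay above all 8 LFD tumors, but the other 2 probes of Runx2 gave differences of only 0.10 and 0.31. Cercam, which encodes a glycosyltransferase-like protein of endothelial cells, ran from -1.17 to -0.21 in HFD, with a median of -0.75, and from -3.61 to -1.04 in LFD, with a median of -1.89. The groups overlapped by 1 tumor on the HFD side, and the difference was 1.33 ± 0.29 (SE), or 1.09 without 13L, the lowest LFD tumor. Slc27a1, a long-chain fatty acid transporter, ran from 0.08 to 1.46 with a median of 0.39 in HFD, against -2.35 to -0.19 with a median of -0.32 in LFD. Its groups did not overlap, with a difference of 1.17 ± 0.32 (SE).

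In all, 6 genes (0.0282%) had every HFD tumor above every LFD tumor and 4 (0.0188%) every HFD tumor below. The 6 were Runx2, AA212771, Sh2d3c, Slc27a1, Brd1 and Gtpbp2, and the 4 were Jade1, Zfp566, Zfp82 and the unnamed feature NAP112911-1. Some of these names lie outside the rule for named genes and were taken after their values were seen. Sh2d3c, Gtpbp2 and NAP112911-1 lacked values in 1 or 2 HFD tumors because outlier spots were left missing.

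**Figure D1:**
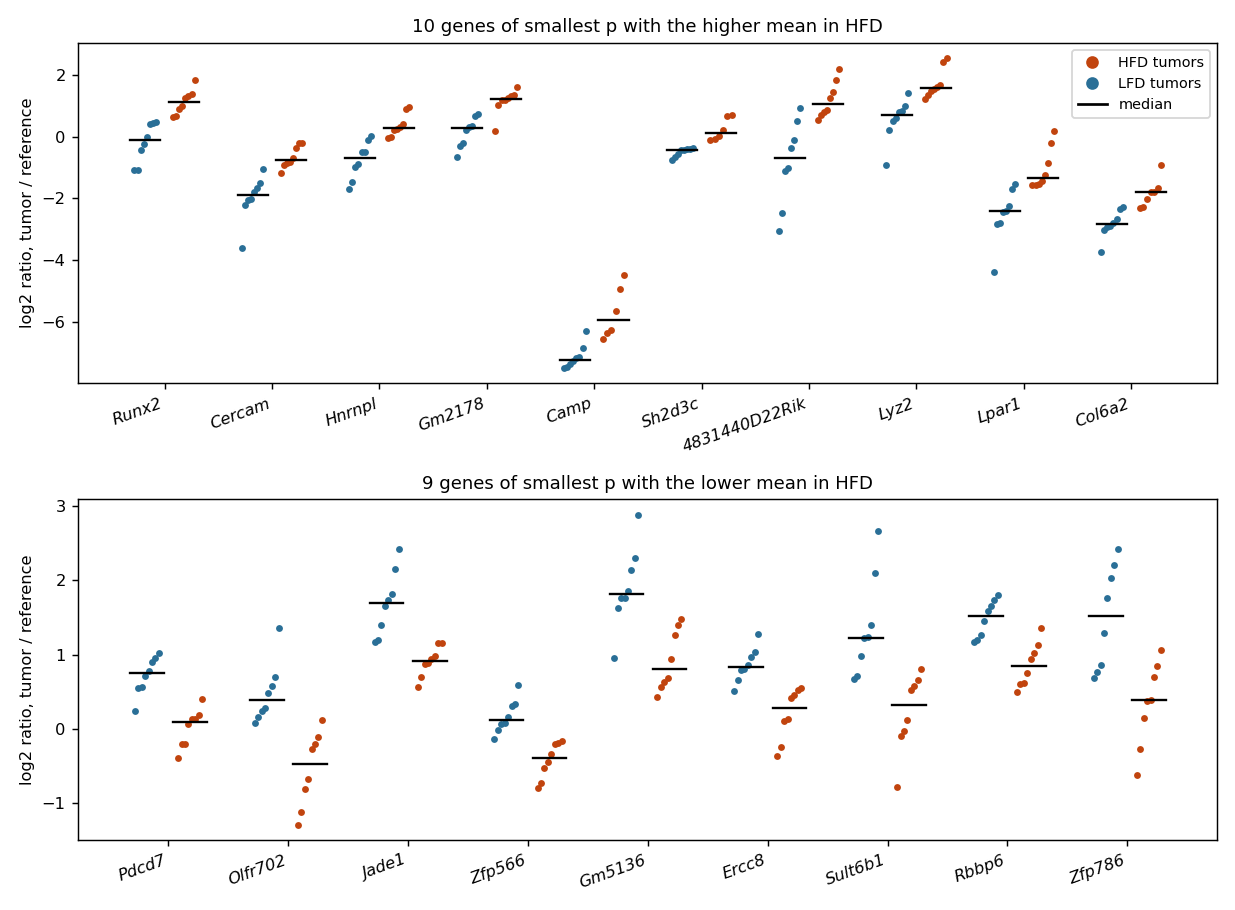
Log2 ratio of tumor over reference (axis) in each HFD and LFD tumor for the genes of smallest p in each direction; each point is 1 tumor and the bars mark group medians. All HFD tumors lie above all LFD tumors for Runx2 and Sh2d3c, and the groups overlap for most of the other genes.

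The other genes of smallest p on the higher side differed by 0.74 to 2.04. Lyz2, which encodes the lysozyme of macrophages and other myeloid cells, ran from 1.21 to 2.55 with a median of 1.59 in HFD, against -0.90 to 1.41 with a median of 0.69 in LFD, with a difference of 1.18 ± 0.29 (SE). Of the HFD tumors, 6 lay above the highest LFD tumor. Camp, the cathelicidin of neutrophil granules, was dim in tumor relative to the reference, with medians of -5.96 in 6 HFD and -7.23 in 8 LFD tumors and a difference of 1.43 ± 0.32 (SE), against 0.71 for its other probe. Lpar1, a receptor for lysophosphatidic acid, had a difference of 1.51 ± 0.37 (SE), and Hnrnpl, an RNA-binding splicing regulator, one of 1.15 ± 0.25 (SE). Col6a2, a chain of collagen VI, had a difference of 0.996 ± 0.24 (SE), whereas its other probe gave -0.39.

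On the lower side the differences of the genes of smallest p ran from -1.17 to -0.60. Jade1, a subunit of a histone acetyltransferase complex, ran from 0.57 to 1.16 with a median of 0.92 in HFD, against 1.17 to 2.42 with a median of 1.70 in LFD, a difference of -0.79 ± 0.19 (SE). The groups met without overlapping, and the other probe of Jade1 gave 0.16. Ercc8, a protein of transcription-coupled DNA repair, had a difference of -0.66 ± 0.17 (SE), and Rbbp6, a ubiquitin ligase that binds RB and p53, one of -0.62 ± 0.16 (SE). The olfactory receptor gene Olfr702 was not well above background in any HFD tumor and was so in 5 LFD tumors. A bound that set the lowest signal above background on each HFD array against the LFD mean was 1.28-fold lower in HFD. That mean includes LFD tumors in which the gene was not well above background. Over the settings tried the difference ran from -1.17 to -0.090.

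Many list medians had no steady direction, since 69 of 612 computed over 18 alternatives changed sign, in 19 of 34 lists. These were not only lists near 0. Without 13L, 42L4B and 60L, antigen presentation went from 0.29 to -0.13 and EGF receptor family and ligands from 0.22 to -0.11. Milk proteins, at -0.24, turned with array weights. No sign change occurred in the fibroblast, endothelial, neutrophil, macrophage identity and interferon lists. Of all 34 lists of genes with measured members, the fibroblast and mesenchymal list stood highest. Its members mark fibroblasts or other mesenchymal cells, encode matrix, or are transcription factors of epithelial to mesenchymal transition. Of the 26, 25 had positive differences, with a median of 0.68 against -0.02 over all genes. At an unadjusted p under 0.05, 13 of the 26 were higher and 0 lower, against 3.29% and 4.6% of all genes, and none passed after adjustment. Thy1, a surface protein of fibroblasts, ran from 0.23 to 1.47 with a median of 1.05 in 6 HFD tumors, against -0.53 to 0.40 with a median of 0.17 in 8 LFD tumors, a difference of 0.85 ± 0.21 (SE). Mmp14, a membrane-bound protease of matrix, ran from -0.69 to 0.25 with a median of 0.10 in HFD, against -2.75 to -0.06 with a median of -0.69 in LFD, a difference of 0.91 ± 0.30 (SE). For Thy1, 5 of the 6 HFD tumors with a value lay above every LFD tumor, and for Mmp14 6 of 8 did, with the groups overlapping in both genes.

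Col6a1, the partner chain of Col6a2, ran from -2.46 to -0.95 with a median of -1.39 in HFD, against -2.95 to -1.66 with a median of -2.07 in LFD. Its difference was 0.69 ± 0.23 (SE), and the lowest HFD value, that of 60L, lay far below the other 7, all of which exceeded the highest LFD tumor. The receptor genes Pdgfra and Pdgfrb, which bind platelet-derived growth factors on fibroblasts and pericytes, had differences of 1.17 ± 0.49 and 0.62 ± 0.24 (SE). Col1a2, a chain of the main fibrillar collagen, had 0.96 ± 0.36 (SE), and its partner Col1a1 had 0.64 ± 0.47, with a 95% interval of -0.36 to 1.63, or 0.41 without 13L. Vim, an intermediate filament of mesenchymal cells, had 0.77 ± 0.29 (SE). Among transcription factors of epithelial to mesenchymal transition Snai1 was at 0.15, Snai2 at 0.08, Twist1 at 0.14, Zeb1 at 0.39 and Zeb2 at 0.00, with no test of their difference from the other members. These last 10 genes were taken from the list after their values were seen.

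**Figure D2:**
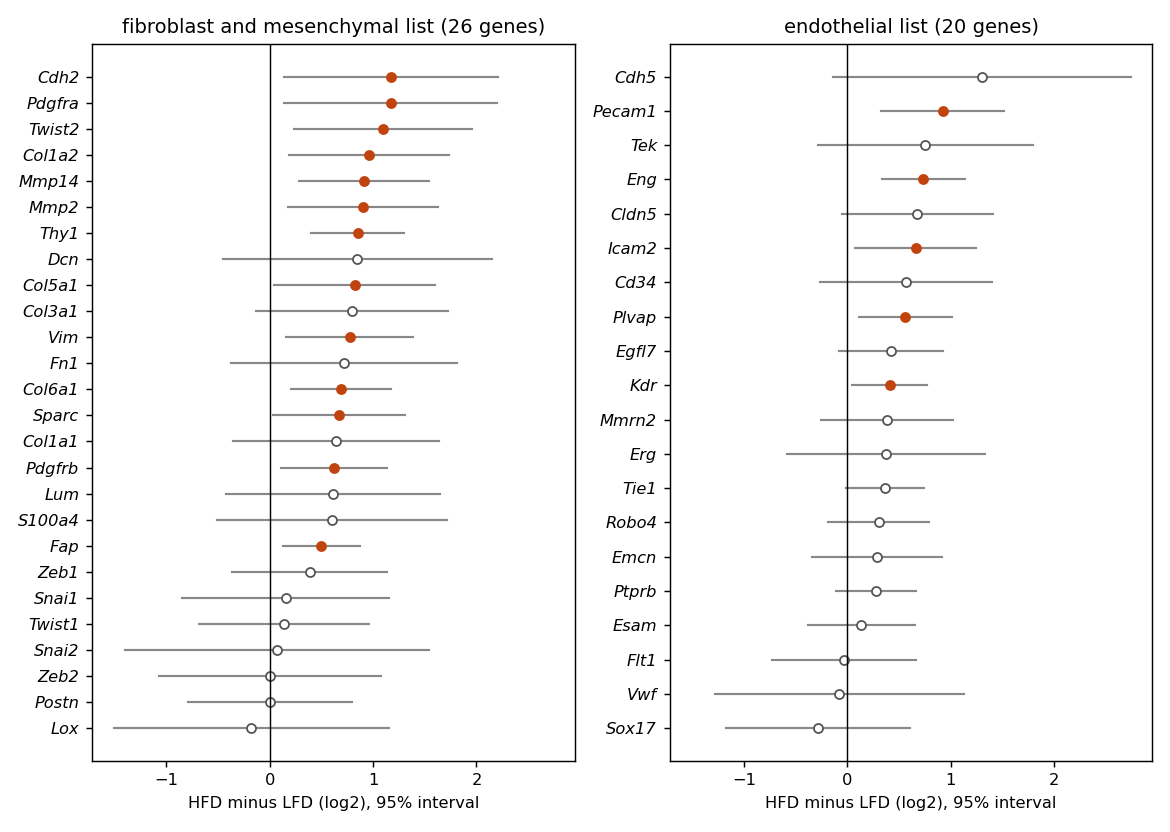
HFD minus LFD difference in mean log2 ratio with its 95% interval (x axis) for each measured member of the fibroblast and mesenchymal list (left) and the endothelial list (right). Filled points had an unadjusted p under 0.05 and open points did not. Most points lie to the right of 0, and no gene passed after adjustment.

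The median level of this list in a tumor, taken after centring each gene on the 16 tumors, ran from -1.14 to 1.301 with a median of 0.17 in HFD, against -1.33 to 0.10 with a median of -0.20 in LFD. The groups overlapped, with 4 HFD tumors above the highest LFD tumor and both 60L in HFD and 13L in LFD far below the rest. Because outlier spots were left missing, the levels of 42L4B and 60L leave out some members, such as Thy1. Levels differed more between HFD slides than between the diets, with slide means of 0.24, -0.54 and 0.83 on slides 6, 7 and 8 against -0.44 and -0.20 on the LFD slides 4 and 5. Slide 7 held only early tumors and slide 8 only late ones. In epithelial tumors of mice switched from one diet to the other after puberty the median level was -0.14 on the HFD-LFD regimen (7 tumors, -0.75 to 0.56) and -0.23 on the LFD-HFD regimen (6 tumors, -0.50 to 0.81), both spans overlapping those of HFD and LFD.

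With slide as a random block, 7 of the 26 members were higher and 0 lower at an unadjusted p under 0.05, against 1.36% and 1.67% of all genes. Without 42L4B, 60L and 13L the median was 0.65, with 9 members higher and 0 lower, against 3.23% and 4.52% of all genes. With outlier spots kept, 5 members were higher, against 2.89% of all genes, and in the authors' matrix 4 of 25 were, against 4.18%. The median ran from 0.51 to 0.80 over all settings tried. The share of spots above background in the tumor channel, given earlier, had a lower mean in HFD, and its part in this result was not tested.

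**Figure D3:**
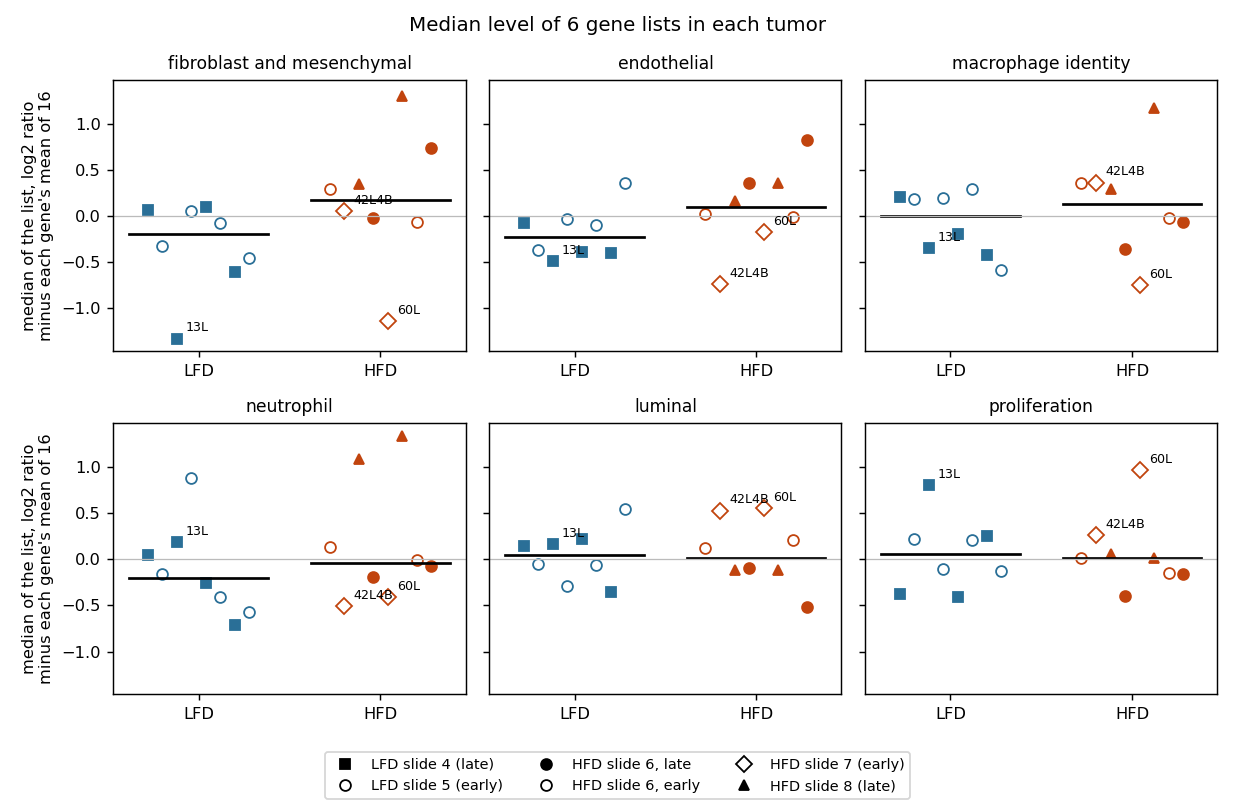
Median level of 6 gene lists in each tumor (y axis, log2 relative to the mean of the 16 tumors for each gene) by diet and onset; each point is 1 tumor and the bars mark group medians. In the fibroblast and mesenchymal panel 4 HFD tumors lie above the highest LFD tumor, while 60L and 13L lie lowest in their groups.

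The endothelial list, whose members line blood vessels, followed at a median of 0.40, with 17 of 20 members positive and 5 higher and 0 lower at an unadjusted p under 0.05, against 3.29% and 4.6% of all genes. Eng, a co-receptor for TGF-beta on endothelium, ran from -1.07 to -0.27 with a median of -0.53 in 7 HFD tumors, against -1.70 to -0.65 with a median of -1.39 in LFD, a difference of 0.74 ± 0.19 (SE). Pecam1, which encodes the vessel marker CD31, ran from -1.07 to 1.01 with a median of -0.53 in HFD, against -1.75 to -0.84 with a median of -1.13 in LFD. Its difference was 0.92 ± 0.28 (SE), or 0.56 without 42L4B and 60L, and 6 HFD tumors lay above the highest LFD tumor.

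Plvap, of fenestrated endothelium, had 0.56 ± 0.21 (SE), and Kdr, the main receptor for VEGF-A, 0.41 ± 0.17 (SE). Over the settings tried the difference ran from 0.34 to 0.67 in Plvap and from 0.017 to 0.56 in Kdr. Cdh5, the cadherin of endothelial junctions, had the largest difference of the list, 1.301 ± 0.67 (SE), which was 0.70 without 13L, 42L4B and 60L because 13L lay at -6.17. Without those 3 tumors 10 members of the list were higher and 0 lower, against 3.23% and 4.52% of all genes. A random slide effect left 2 higher and 0 lower, against 1.36% and 1.67%. The angiogenic growth factors had a median of -0.07 with 0 of 20 members past an unadjusted p of 0.05, and Vegfa itself had 0.10 ± 0.31 (SE), with a 95% interval of -0.57 to 0.76.

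Neutrophil genes had a median of 0.36, with 3 of 14 members higher and 0 lower at an unadjusted p under 0.05, against 3.29% and 4.6% of all genes. The 3 were Camp, the chemokine receptor gene Cxcr2 with 1.196 ± 0.50 (SE), and Cxcr4, the receptor for CXCL12, with 0.88 ± 0.40 (SE), or 0.55 without 13L, which left 2 members past that p. The calgranulin genes S100a8 and S100a9 spread widely, from -4.20 to 2.05 and from -5.74 to 2.38 in HFD, so that their differences of 1.75 ± 1.19 and 1.74 ± 1.16 (SE) lay within the spread. S100a8 and S100a9 were taken after their values were seen.

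Macrophage identity genes had a median of 0.12, with 3 of 20 members higher and 0 lower at an unadjusted p under 0.05, against 3.29% and 4.6% of all genes. The 3 were Lyz2 and the complement genes C1qc (0.49 ± 0.22, SE) and C1qb (0.76 ± 0.36, SE). Adgre1, which encodes the F4/80 antigen, ran from -0.11 to 2.42 with a median of 0.94 in HFD, against -0.15 to 1.87 with a median of 1.09 in LFD. The groups overlapped, with 2 HFD tumors, 42L4B and 62L, above the highest LFD tumor, and the difference was -0.06 ± 0.36 (SE), turning to 0.082 with normexp and loess and to 0.014 in the authors' matrix. Cd68 had 0.42 ± 0.21 and Csf1r 0.42 ± 0.32 (SE), and in both genes tumor 62L was the highest HFD tumor, without which the differences were 0.26 and 0.17.

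The M2-associated genes, which mark alternatively activated macrophages, had a median of -0.14. In either direction 0 of 13 members were past an unadjusted p of 0.05, against 3.29% higher and 4.6% lower of all genes. Without 42L4B and 60L the median turned to 0.37. In that setting 1 member was higher and 1 lower at that p, against 782 and 1047 of all 21244 genes. Arg1, arginase 1, ran from -2.34 to 0.99 with a median of -1.30 in 6 HFD tumors, against -3.99 to 1.15 with a median of -2.05 in 8 LFD tumors. Its difference of 1.14 ± 0.71 (SE) had a 95% interval of -0.36 to 2.65, and LFD tumor 17R lay above all the others. Without HFD tumor 66L the difference was 0.74. Mrc1, the mannose receptor, had -0.07 ± 0.49 (SE), and its sign turned without 42L4B and 60L, to 0.39. The M1-associated genes had a median of 0.19. Tnf, an inflammatory cytokine, at 0.90 ± 0.31 (SE), was the only one of 13 past an unadjusted p of 0.05, against 3.29% higher and 4.6% lower of all genes.

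Interferon-stimulated genes were the list most often below 0 in HFD, with 26 of 34 members negative, a median of -0.19 and 0 members past an unadjusted p of 0.05. Without 13L, 42L4B and 60L the median was -0.45 and 5 members were lower at that p, against 961 of all 21244 genes. Antigen presentation genes had a median of 0.29, with 2 of 18 members higher and 0 lower at an unadjusted p under 0.05, against 3.29% and 4.6% of all genes. The 2 were the class II genes H2-DMa (0.73 ± 0.32, SE) and H2-Ab1 (0.50 ± 0.22, SE). Without the 3 tumors the median was -0.13, with 0 members past that p. T and NK cell genes had a median of 0.13 and B and plasma cell genes one of 0.28, with 0 of 22 and 0 of 9 members past an unadjusted p of 0.05.

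**Figure D4:**
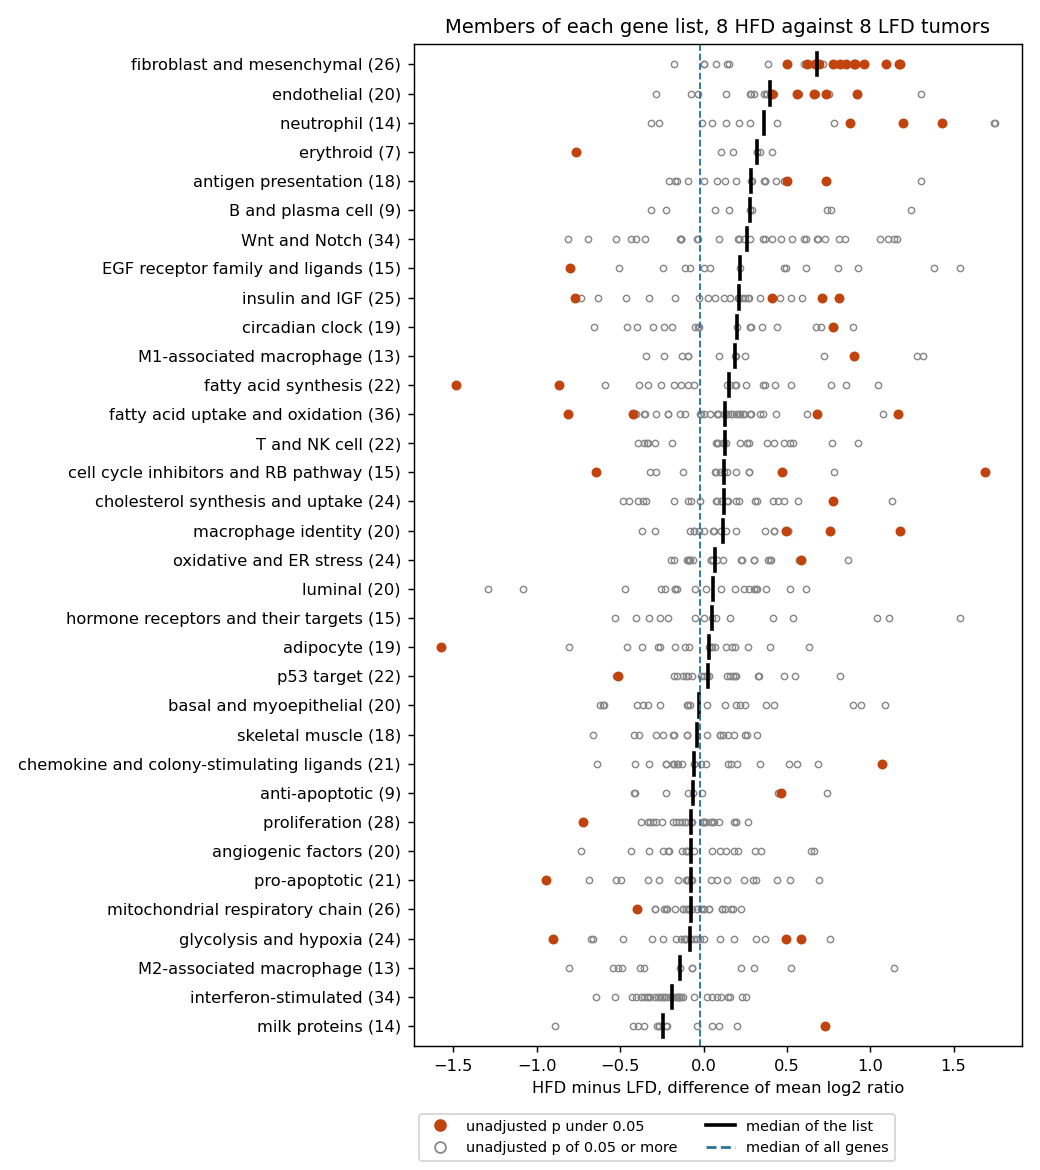
HFD minus LFD difference in mean log2 ratio (x axis) of each measured member of 34 gene lists, 1 list a line, with the number measured in brackets. Filled points had an unadjusted p under 0.05, black bars mark list medians, and the dashed line marks the median of all genes. The fibroblast and mesenchymal list has the highest median, 0.68, and the milk proteins the lowest, -0.24, a sign that turned with array weights.

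Genes of lipid handling had few members past the unadjusted threshold. Fatty acid uptake and oxidation genes had a median of 0.13, with 2 of 36 members higher and 2 lower at an unadjusted p under 0.05, against 3.29% and 4.6% of all genes. Slc27a1 and the mitochondrial carrier gene Ucp2 (0.68 ± 0.26, SE) were on the higher side, and the fatty acid activating enzyme gene Acsl3 (-0.81 ± 0.33, SE) was on the lower. The second gene on the lower side was Slc27a4, another fatty acid transporter, taken after its value was seen. Cpt1a, the gate of fatty acid entry into mitochondria, had 0.36 ± 0.19, and Cd36, a fatty acid scavenger receptor, 0.44 ± 0.54 (SE), which was 0.066 without 13L and turned to -0.14 with outlier spots kept.

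Among fatty acid synthesis genes, 0 of 22 were higher and 2 lower at an unadjusted p under 0.05, against 3.29% and 4.6% of all genes. Thrsp, a regulator of lipogenesis, ran from -3.76 to -1.998 with a median of -3.00 in 7 HFD tumors, against -3.24 to 0.61 with a median of -1.25 in LFD, a difference of -1.48 ± 0.54 (SE). Acss2, which makes acetyl-CoA from acetate, had -0.87 ± 0.30 (SE), with -0.12 for its other probe. The groups overlapped in both genes. Fasn, the fatty acid synthase gene, had -0.33 ± 0.27 (SE), with HFD tumor 42L4B far above the other HFD tumors at 1.46 and a difference of -0.54 without it, and Scd1, a desaturase gene, had 0.76 ± 0.49 (SE), or 0.37 without 13L. Insig1, which holds back cholesterol synthesis, had 0.78 ± 0.27 (SE). It was the only member of 24 in the cholesterol list past an unadjusted p of 0.05, against the same shares of all genes.

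Adipocyte genes had a median of 0.03. Adrb3, the beta-3 adrenergic receptor of fat cells, was the only one of 19 past an unadjusted p of 0.05, against 3.29% higher and 4.6% lower of all genes. Its difference was -1.57 ± 0.62 (SE). Its lowest values were -5.64 and -4.23 in 42L4B and 60L, without which the difference was -0.80. Lep, the leptin gene, did not pass the filter on signal and was well above background in 3 HFD and 4 LFD tumors. Among insulin and IGF genes, 3 of 25 were higher and 1 lower at an unadjusted p under 0.05, against 3.29% and 4.6% of all genes. The binding protein genes Igfbp4, at 0.81 ± 0.32, and Igfbp6, at 0.71 ± 0.25 (SE), were among the higher ones. Foxo3, a transcription factor held back by insulin, was the lower one, at -0.77 ± 0.28 (SE). Igf1 had 0.03 ± 0.63 (SE).

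Cell division genes lay near the median of all genes, with a median of -0.07. At an unadjusted p under 0.05, 0 of 28 members were higher and 1 lower, against 3.29% and 4.6% of all genes. Pcna, the sliding clamp of DNA polymerase, ran from -0.23 to 0.40 with a median of 0.12 in 7 HFD tumors, against -0.82 to 0.57 with a median of -0.06 in LFD. The HFD values lay within the LFD span, and the difference was 0.20 ± 0.19 (SE), with a 95% interval of -0.21 to 0.61, and was 0.090 without 17R. Mki67, the gene of the Ki-67 antigen, had -0.32 ± 0.24 (SE), or -0.15 without 13L, and Cdk1, the kinase that drives mitosis, was the lower member with -0.72 ± 0.27 (SE).

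Of the cell cycle inhibitors and RB pathway genes, 2 of 15 were higher and 1 lower at an unadjusted p under 0.05, against 3.29% and 4.6% of all genes. Cdk6, a kinase that phosphorylates RB, ran from 0.60 to 3.31 with a median of 2.28 in HFD, against -1.56 to 1.90 with a median of 0.77 in LFD, a difference of 1.69 ± 0.55 (SE). Of the HFD tumors, 5 lay above the highest LFD tumor. E2f3, a transcription factor that RB restrains, had -0.65 ± 0.20 (SE). Among pro-apoptotic genes Bmf, a BH3-only protein, was the only one of 21 past an unadjusted p of 0.05, at -0.95 ± 0.32 (SE), and among anti-apoptotic genes Mcl1 was the only one of 9, at 0.46 ± 0.19 (SE). Bcl2, which restrains cell death, had 0.45 ± 0.26 (SE). The p53 target genes had a median of 0.03, with 0 of 22 higher and 1 lower, Tigar, at -0.51 ± 0.19 (SE). For the apoptosis and p53 target lists too, the shares over all genes were 3.29% higher and 4.6% lower.

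Lineage genes of the epithelium spread widely within each diet. Krt5, a keratin of basal cells, ran from -2.88 to 1.34 in HFD and from -3.61 to 1.96 in LFD, with a difference of 0.25 ± 0.83 (SE). Esr1, the estrogen receptor gene, ran from 0.48 to 4.90 in HFD and from -3.12 to 5.09 in LFD, with 1.04 ± 0.87 (SE), or 0.47 without 13L, 0.61 without 60L and 1.64 without 31R, and Pgr, the progesterone receptor gene, had 0.08 ± 0.70 (SE). The luminal keratin genes Krt8 and Krt18 had 0.19 ± 0.26 and 0.01 ± 0.32 (SE). The luminal and the basal and myoepithelial lists had medians of 0.06 and -0.03, with 0 of 20 members past an unadjusted p of 0.05 in each. Milk protein genes had a median of -0.24, which turned to 0.07 with array weights. Csn1s1, a casein gene, was the only one of 14 past that p, at 0.73 ± 0.32 (SE). Of all genes, 3.29% were higher and 4.6% lower at that p.

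The remaining lists had few members past an unadjusted p of 0.05, where 3.29% of all genes were higher and 4.6% lower. Wnt and Notch genes had a median of 0.26 with 0 of 34, hormone receptor and target genes 0.05 with 0 of 15, skeletal muscle genes -0.04 with 0 of 18, and mitochondrial respiratory chain genes -0.08 with 0 of 26 higher and 1 lower. Among chemokine and colony-stimulating ligands Cxcl12, which draws CXCR4-bearing cells and is made by fibroblasts, was the only one of 21, at 1.07 ± 0.49 (SE). Among circadian clock genes Nr1d1, a repressor in the clock, was the only one of 19, at 0.77 ± 0.29 (SE). Oxidative and ER stress genes had 1 of 24, Prdx1, a peroxidase, at 0.58 ± 0.27 (SE), and EGF receptor family and ligand genes had 1 of 15, the ligand gene Nrg4, at -0.80 ± 0.35 (SE), which turned to 0.052 with normexp and loess. Glycolysis and hypoxia genes had a median of -0.08 with 2 of 24 higher and 1 lower. Erythroid genes had a median of 0.32 with 6 of 7 positive, though 0 were higher and 1 lower at that p.

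Whether the diet difference was the same in early and late tumors was tested as an interaction in a fit of the 4 groups of diet and onset. No gene passed, with 0 of 21244 (0%) at an adjusted p under 0.10 by limma, whereas 1680 had an unadjusted p under 0.05. The typical 95% interval of an interaction reached 1.11 to either side. In early tumors 1 gene (0.00471%) passed, and in late tumors 0 (0%), the smallest adjusted p there being 0.213 by limma. At an unadjusted p under 0.05, 960 genes were higher (4.52%) and 868 lower (4.09%) in early tumors, and 855 higher (4.02%) and 947 lower (4.46%) in late tumors.

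The feature called in early tumors carries only a transcript name, ENSMUST00000129924. It was higher in HFD, with 1.24, 1.57, 1.96 and 1.47 in HFD early tumors 40R4A, 42L4B, 60L and 65R and -1.53, -1.34, -1.21 and 0.23 in LFD early tumors 11R, 17R, 22R and 31R. The groups did not overlap, and the difference was 2.52 ± 0.33 (SE; adjusted p = 0.0300 by limma), against 0.47 ± 0.33 in late tumors. Its interaction did not pass after adjustment, and the call was lost with slide as a random block and without 42L4B and 60L. It was also lost with normexp and loess, without background correction, in the authors' matrix and with scan session as a block. Leaving out any of 11R, 17R, 22R, 42L4B or 60L alone lost it too.

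The late difference was larger than the early difference in 24 of 26 members of the fibroblast and mesenchymal list. Over all genes the early minus late difference had a median of 0.02. The list median was 0.29 in early tumors, with 0 members past an unadjusted p of 0.05. In late tumors it was 1.08, with 14 higher and 0 lower, against 4.02% and 4.46% of all genes. The interaction had an unadjusted p under 0.05 in 5 members, all with the larger late difference, against 3.77% of all genes, and 0 passed after adjustment. Pdgfra had an early difference of 0.25 ± 0.60 and a late one of 2.09 ± 0.60 (SE), and the proteoglycan gene Dcn had -0.58 ± 0.78 and 1.99 ± 0.72 (SE). Both genes were taken from the list after their values were seen. The level of the list ran from -1.14 to 0.29 in HFD early, from -0.46 to 0.05 in LFD early, from -0.02 to 1.301 in HFD late and from -1.33 to 0.10 in LFD late tumors. Early values of the diets overlapped, with 60L the lowest, and late ones overlapped by 1 HFD tumor, 57R.

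In the endothelial list the early median was 0.02, with 1 member higher and 1 lower at an unadjusted p under 0.05, against 4.52% and 4.09% of all genes. The late median was 0.81, with 10 higher and 0 lower, against 4.02% and 4.46% of all genes. The interaction had an unadjusted p under 0.05 in 8 of 20 members, all with the larger late difference, against the same 3.77%, and 0 passed after adjustment. Eng had an early difference of 0.30 ± 0.25 and a late one of 1.104 ± 0.23 (SE), and Plvap 0.03 ± 0.25 and 1.05 ± 0.23 (SE). Both genes lacked a value in HFD early tumor 60L. The late HFD levels of the list, from 0.17 to 0.83, all lay above the late LFD levels, from -0.49 to -0.07, while the early levels overlapped. LFD late and LFD early tumors were on different slides and 2 of the 4 HFD early tumors were 42L4B and 60L, so the onsets cannot be told apart from slides in this comparison.

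Other lists also had late medians above their early ones. M2-associated genes had -0.68 early and 0.74 late, with 6 of 13 members at an unadjusted interaction p under 0.05 and the larger late difference, against 3.77% of all genes. Arg1 had -0.63 ± 0.92 and 2.58 ± 0.75 (SE). Its HFD early values came only from 40R4A and 65R, at -2.34 and -1.11, since 42L4B and 60L lacked one. LFD early tumor 17R, at 1.15, lay far above the other LFD tumors in Arg1. Neutrophil genes had -0.18 and 0.91, with Cxcr2 at 0.18 ± 0.64 and 2.21 ± 0.64 (SE). Adipocyte genes had -0.50 and 0.46, with 8 of 19 members at such a p, also with the larger late difference. The adipokine gene Adipoq, which lacked a value in 60L, had -1.12 ± 0.54 and 0.46 ± 0.50 (SE). Mitochondrial respiratory chain genes had 0.03 early and -0.12 late, and luminal genes 0.31 and 0.07. The labels of 3 HFD tumors on slide 6, namely 40R4A, 57R and 65R, differ between the scanner output and the authors' matrix, and the onsets given here are those of the scanner output.

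Among single genes in late tumors the smallest p-values included Slpi, a secreted inhibitor of neutrophil elastase, with a late difference of 2.24 against 0.32 in early tumors. Rcn3, a calcium-binding protein of the secretory pathway, had 1.505 late and 0.32 early. Slpi and Rcn3 were taken after their values were seen. Neither passed after adjustment with the processed signals, and both did with quantile normalization, which called 8 genes in late tumors.

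**Figure D5:**
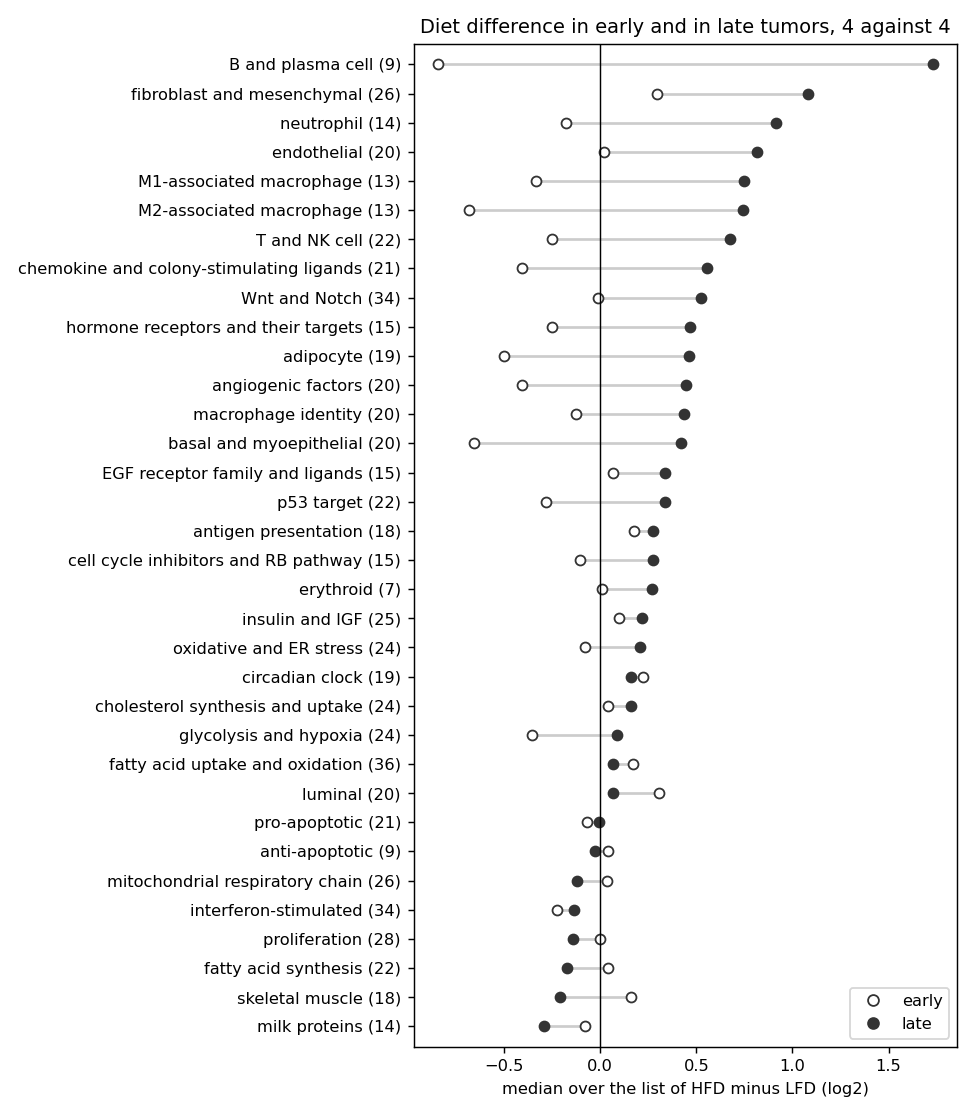
Median over each gene list of the HFD minus LFD difference in mean log2 ratio (x axis) in early tumors (open, 4 against 4) and late tumors (filled, 4 against 4), lists ordered by the late median. The fibroblast and mesenchymal list lies at 0.29 early and 1.08 late, and the endothelial list at 0.02 and 0.81.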

How the data were processed

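The authors deposited, for each 2-color array, the scanner software's spot intensity in both channels, as well as a log2 ratio matrix made by Lowess normalization, filtering and imputation. The submitters' processing notes name Agilent Feature Extraction 8.5.1.1, whereas the headers of the 16 arrays give version 11.0.1.1. The deposited processed intensities are background corrected and dye normalized, and no further scaling was applied.

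Here log2 of the Cy5 over the Cy3 processed intensity was taken for each of 43020 gene spots, outlier spots were left missing, and spots of a probe were averaged. Probes were kept if both channels exceeded a signal of 10 on 80% or more of the 16 arrays and 5 or more values remained in each diet group (27763 of 39429), 1 a gene by highest mean signal, which left 21244 genes. Of these, 17136 were named through a gene table and 4108 kept the file's name. Differences were tested with lmFit and eBayes of limma 3.58.1 in R 4.3.3, with Benjamini-Hochberg adjustment at 0.10, the false discovery rate of the study's diet comparison. SAM was written anew with 100 permutations and imputation from 10 neighbors. The fits were tested on simulated data. The number of tumors limits the precision.

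Named genes were the 10 of smallest p in each direction, well above background on at least 4 arrays of 1 diet group, a set of tumor and cell type genes, and the 3 members of smallest p in each of 35 lists, of which the Y-linked list served only for the channels. Of the named genes, 3 are not reported here. Members, lists and tests were chosen with earlier results of these data known. Alternatives changed the background correction, scaling, filter, probe choice, outlier spots, samples, blocks, test and source of values. The other epithelial and the spindle cell tumors were used only where named.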

Additional observations from a re-analysis of the deposited data

Results flagged for a closer look

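In 45 of 352 groups of 8 or fewer tumors examined (12.8%), 1 tumor lay farther from its nearest neighbor than is usual for the group's range, where chance alone gives about 1 group in 20. Tumor 13L was that tumor in 18 of the 45. Among LFD tumors it was the lowest for Cd36 (-6.38), Cd3g (-2.20), Cdh5 (-6.17), Cercam (-3.61), Cxcr4 (-0.84), Ei24 (-2.06), H2-Ab1 (1.298), Mmp14 (-2.75), Prdx1 (-0.78), Scd1 (-2.84), Slc27a1 (-2.35), Thy1 (-0.53) and Trp53 (-2.25) and for the median of antigen presentation genes (-1.67). It was the highest for Atp5a1 (-0.25), Mki67 (1.28), Uqcrfs1 (-0.50) and the median of mitochondrial respiratory chain genes (0.53).

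Other LFD tumors were far above the rest. Tumor 17R was the highest for Arg1 (1.15), Mrc1 (1.28), Tnfsf11 (3.56) and the M2-associated list (1.36). Tumor 31R was the highest for Nrg4 (-0.039), Pgr (4.97), Stat5a (3.42) and the hormone receptor list (1.90), and the lowest for Lpar1 (-4.40). Tumor 19R was the highest for Birc5 (1.57) and the milk protein list (1.69), and 27L4A the lowest for the cholesterol list (-0.54).

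Among HFD tumors, 60L had the highest share of outlier spots (22.02%) and pro-apoptotic list (1.08) and the lowest Col6a1 (-2.46), Gm2178 (0.21), erythroid list (-1.66) and skeletal muscle list (-2.28). Tumor 42L4B was the highest for Fasn (1.46), Pkm (2.27) and the fatty acid synthesis list (0.43). Tumor 62L was the highest for Cd68 (2.06), Csf1r (2.37) and Eno1 (1.58), 57R the highest for Gpx3 (1.44) and lowest for Birc5 (-0.97), and 40R4A the lowest for Mmp14 (-0.69).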

How the results depend on the processing

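The counts of genes higher and lower in HFD at an adjusted p under 0.10 stayed at 0 under every alternative but one, loess without background correction, which gave 2 higher, Cercam and Frzb. Leaving out each tumor in turn gave 0 to 0. The count in early tumors was 1, and 0 with normexp and loess, with no background correction, in the authors' matrix, with scan session as a block, with slide as a random block, without 42L4B and 60L, and without those and 13L, but 11 with array weights. Leaving out each tumor in turn gave 0 to 2, with 0 without 11R, 17R, 22R, 42L4B or 60L. The count in late tumors was 0, and 8 with quantile normalization and 9 without 11L, the first LFD replicate, with 0 to 9 over the tumors left out. The interaction count was 0, and 1 in the authors' matrix, with array weights and with the matrix's onset labels, with 0 to 1 over the tumors left out. The cause of these differences was not tested.

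Of 4820 values of 142 named genes over 34 settings, 76 changed sign, in 19 genes. With normexp and loess these were Adgre1 0.082, Mrc1 0.044, Krt18 -0.061, Nrg4 0.052, Ccl8 -0.39, Klf1 0.36, Tnfsf11 -0.012 and Mylpf 0.61. Without background correction they were Krt18 -0.066, Pgr -0.12, Ccl8 -0.15, Klf1 0.016 and Mylpf 0.64, with quantile normalization Krt18 -0.10, with the mean of all probes Tfam 0.28, and with outlier spots kept Cd36 -0.14 and Igf1 -0.33. In the authors' matrix they were Adgre1 0.014, Mrc1 0.043, Igf1 -0.12 and Btn1a1 -0.0012, and with slide as a random block Igf1 -0.076. With scan session as a block, or without 42L4B and 60L, they were Mrc1 0.39, Krt18 -0.023, Pgr -0.057 and Adipoq 0.0057, and without 13L as well Trp53 -0.089, Mrc1 0.33, Pgr -0.10, Adipoq 0.00049, Cd22 0.023 and Ei24 -0.17. Without 11L it was Pgr -0.10, with array weights Mrc1 0.32, Krt18 -0.010 and Ei24 -0.064, and with onset as a covariate Igf1 -0.071. Leaving out each tumor in turn, Pgr ran from -0.27 to 0.54, Adgre1 from -0.26 to 0.11, Igf1 from -0.44 to 0.48, Krt5 from -0.19 to 0.75, Vegfa from -0.13 to 0.25, Mrc1 from -0.37 to 0.24, Krt18 from -0.11 to 0.20 and Adipoq from -0.50 to 0.0057. Of 612 list medians over 18 settings, 69 changed sign, in 19 lists, and 1 moved by more than the spread between tumors, that of fatty acid synthesis genes, which was 0.15 as reported and -0.066 without 13L, 42L4B and 60L.

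No paired analysis was possible because the labels give no replicate numbers that the diet groups share. Diet and slide cannot be told apart, dim probes hold only bounds, and with 8 tumors a diet the typical gene's interval reached 0.57 to either side. The setting without 13L, 42L4B and 60L was chosen after seeing the data.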
